A study of Homo sapiens with 6 samples.

Results

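Genes that encode bone marrow homing and adhesion receptors were followed in NALM6 cells, and they were chosen by name: CXCR4, CCR7, S1PR1, SELPLG, CD44, ITGA4, ITGB1, ITGA6 and PECAM1. Of these 9 genes, 8 were matched by symbol and Ensembl identifier among the 57905 genes of the count table, whereas PECAM1 was not analysed here. NALM6 is an established human line of B-cell precursor acute lymphoblastic leukemia. THZ1 binds CDK7 covalently and inhibits this kinase, which phosphorylates RNA polymerase II. RNA-SEQ libraries were compared from 3 samples labelled DMSO, the solvent, and 3 labelled THZ1, which received 500 nM of THZ1, each for 24 h. All libraries came from the same line, at a single dose and a single time, and the line was grown in medium with serum, and the methods name neither stromal nor endothelial cells in these cultures.

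Leukemic and normal B-cell precursors settle in the marrow because stromal cells there secrete CXCL12, which binds the receptor CXCR4, and display VCAM1 and fibronectin, which bind the integrin made of the ITGA4 and ITGB1 chains. The ITGA6 chain pairs with ITGB1 to form a laminin receptor. SELPLG and suitably glycosylated CD44 let cells roll on selectins, CD44 also binds hyaluronan, and PECAM1 is a homophilic adhesion molecule of leukocytes and endothelium. CCR7 guides lymphocytes toward CCL19 and CCL21 in lymph nodes, and S1PR1 guides them out of tissue into blood along a gradient of sphingosine 1-phosphate.

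The libraries held 11015480 to 11164840 counts with DMSO and 7876402 to 8314306 counts with THZ1. Levels are given as CPM, a gene's counts relative to the TMM-scaled library size. This scaling takes the bulk of genes as unchanged, so that every change is relative to the other RNA of the library. In such bulk libraries, fewer cells of a kind and less RNA per cell cannot be told apart. The labels do not say whether the libraries of a treatment came from separate cultures, so the p-values measure the spread between these libraries. All 12 markers of B-cell precursors were detected, with a summed level of 4133 to 4269 CPM (DMSO) or 2192 to 2257 CPM (THZ1). The markers of other cells were low. Their summed levels with DMSO and THZ1 were 7.17 to 8.85 and 8.96 to 14.3 CPM for 7 T and NK cell genes, 12.8 to 14.6 and 20.5 to 21.9 CPM for 8 myeloid genes, 11.7 to 13.2 and 19.2 to 21.3 CPM for 8 endothelial and stromal genes, and 2.03 to 2.56 and 3.68 to 4.55 CPM for 7 erythroid and platelet genes. CD8A, KLRD1, S100A8, S100A9, KDR, PF4 and PPBP had no count in any library. All these sums were higher with THZ1, and the part of these genes in the results was not tested.

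The promoters of 2 members are shown, the most abundant one (CXCR4) and the one that fell most (ITGA6), each as the 250 bases before the start of the main transcript in GENCODE 44 mapped to GRCh37. Capitals mark every match, on either strand, to the TATA box TATAAA, the CCAAT box, the GC box GGGCGG, the E-box CACGTG, the AP-1 motif TGANTCA, the CRE motif TGACGTCA, the ETS-type motif CCGGAA, the RUNX-type motif AACCACA and an NF-kappaB motif. Matches may overlap, and adjacent matches then appear as a single run of capitals.
CXCR4, chr2:136875720-136875969, minus strand: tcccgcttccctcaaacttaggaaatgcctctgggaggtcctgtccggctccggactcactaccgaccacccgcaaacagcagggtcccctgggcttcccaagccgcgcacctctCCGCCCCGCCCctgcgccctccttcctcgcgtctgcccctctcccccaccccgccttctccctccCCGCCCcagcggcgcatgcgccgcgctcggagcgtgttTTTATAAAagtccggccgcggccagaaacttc
ITGA6, chr2:173292064-173292313, plus strand: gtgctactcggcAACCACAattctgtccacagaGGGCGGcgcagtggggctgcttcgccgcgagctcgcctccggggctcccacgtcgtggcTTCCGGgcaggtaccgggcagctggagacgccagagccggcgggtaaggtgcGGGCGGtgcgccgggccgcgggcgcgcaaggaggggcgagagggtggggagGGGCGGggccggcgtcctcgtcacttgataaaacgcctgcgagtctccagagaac
The CXCR4 window held 24 CpG dinucleotides, against a median of 18 over all promoters, 3 matches to the GC box GGGCGG and 2 overlapping matches to TATAAA. Among 19874 promoters of protein-coding genes, 59.1% held the GC box and 9.26% held TATAAA. The ITGA6 window held 30 CpG dinucleotides, 3 GC boxes, 1 match to the ETS-type motif (in 19.4% of promoters) and 1 match to the RUNX-type motif (in 2.82%). A match is a match of letters and was not shown here to be a bound site.

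In the scaled counts, NALM6 cells treated with THZ1 had more CXCR4, CCR7, S1PR1 and ITGB1 mRNA and less ITGA4 and ITGA6 mRNA, relative to the rest of the RNA. CCR7 rose by 2.45 and ITGA6 fell by 2.37 on the log2 scale, while the other 4 changes were between −0.52 and 1.17. These 6 members had enough counts to be tested, and SELPLG and CD44 had not. CCR7 passed the filter on low counts through its THZ1 libraries alone. Of the 6, 4 were called higher and 2 lower, where a call is an adjusted p below 0.05 in the quasi-likelihood test of edgeR, after the method of Benjamini and Hochberg over 16622 genes. These shares stand beside 43.5% of all genes tested called higher, 41.1% called lower and 84.5% called either way, so that a call in either direction was common in these libraries. Where the change also had to reach 1.5 on the log2 scale, CCR7 alone remained called higher and ITGA6 alone called lower, where the background was 24.6% and 12.9%. CCR7 did not reach that size in the second deposited table, which holds FPKM values, counts per length and depth estimated by RSEM. There its log2 fold change was 0.66 to 0.94, and S1PR1, at 0.05 with overlapping groups, was not called. The median log2 fold change of the 6 members was 0.68, against 0.03 over all genes tested. With at least 10 counts required in every library, 5 members were tested, without CCR7, and 3 were called higher and 2 lower. In CPM, the treatments did not overlap for any of the 6, as for 84.7% of all genes tested.

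**Figure D1:**
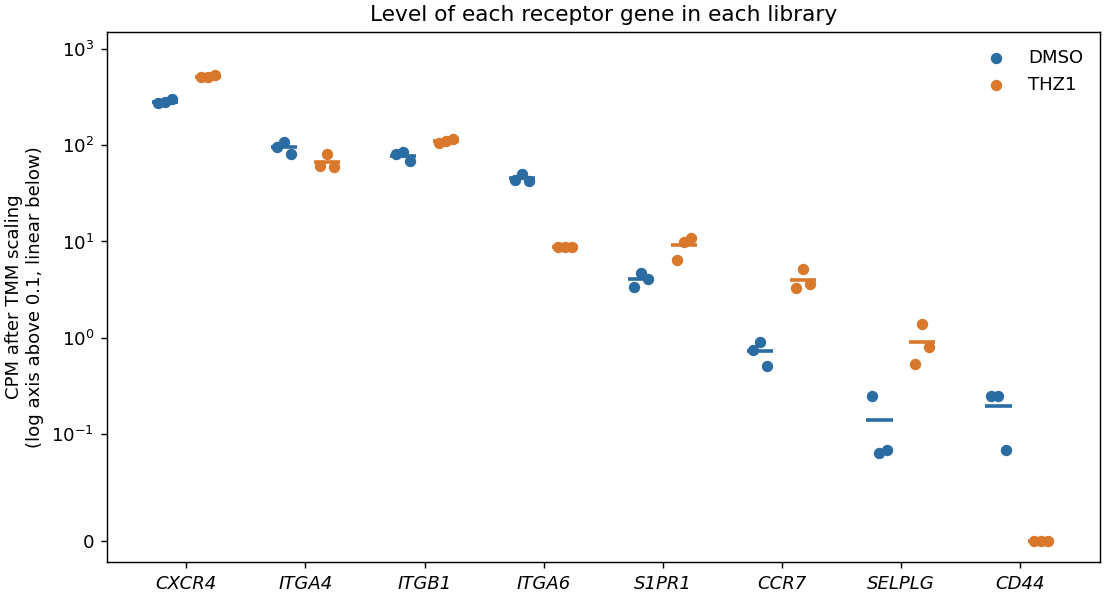
Level of each matched receptor gene in each library, in CPM after TMM scaling on an axis that is logarithmic above 0.1 and linear below. Points are the 3 libraries of a treatment and bars their mean, and CXCR4 lies above all other members while CD44 is at 0 in the 3 THZ1 libraries.

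CXCR4 (ENSG00000121966) lies on chromosome 2 from 136871919 to 136876747, on the minus strand. It had 275, 282 and 299.9 CPM in the DMSO libraries and 509, 508 and 536 CPM in the THZ1 libraries. Every THZ1 library was well above every DMSO library, and the raw counts, 3329 to 3554 with DMSO and 3671 to 4013 with THZ1, were higher too although the THZ1 libraries were shallower. The mean rose from 286 ± 12.8 to 518 ± 16.2 CPM (SD, n = 3 libraries each), 1.81-fold, a log2 fold change of 0.86 with a 95% interval of 0.72 to 0.99 (adjusted p = 2.6e-13 by edgeR). The size depended on the scaling and the table. It was 0.61 with library sizes alone, 1.05 with upper quartile factors and 0.60 with limma on FPKM, all outside this interval.

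CCR7 (ENSG00000126353), on chromosome 17 from 38710021 to 38721724 on the minus strand, was close to the limit of detection with DMSO. Its counts were 9, 11 and 6 with DMSO and 25, 37 and 27 with THZ1, or 0.744, 0.902 and 0.506 CPM against 3.29, 5.12 and 3.61 CPM. The groups were clearly apart, yet all these levels were low beside those of CXCR4 and the integrin chains. Since CCR7 passed the filter on low counts through the THZ1 libraries alone, its selection for the test was tied to its rise. The log2 fold change was 2.45, with a wide 95% interval of 1.74 to 3.16 (adjusted p = 1.3e-07 by edgeR), from 0.717 ± 0.199 to 4.01 ± 0.979 CPM. In the deposited FPKM values the log2 fold change of CCR7 was only 0.66 with a pseudocount of 1 and 0.94 with a pseudocount of 0.1, still called by limma but outside this interval.

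S1PR1 (ENSG00000170989), on chromosome 1 from 101702421 to 101709269 on the plus strand, had 3.39, 4.67 and 4.05 CPM with DMSO and 6.44, 9.97 and 10.96 CPM with THZ1. The lowest THZ1 library, replicate 1, was nearer to the DMSO libraries than to its own group's highest. The log2 fold change was 1.17, with a 95% interval of 0.73 to 1.61 (adjusted p = 9.3e-06 by edgeR). This call was lost in the deposited FPKM values. There S1PR1 had 2.64, 3.32 and 3.13 FPKM with DMSO and 2.09, 3.56 and 4.16 FPKM with THZ1, so the groups overlapped, and the log2 fold change was 0.05 (limma on log2(FPKM + 1), adjusted p = 0.826).

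SELPLG and CD44, the selectin and hyaluronan receptors, were nearly absent from NALM6 cells under both treatments. SELPLG (ENSG00000110876, chromosome 12 from 109015671 to 109027670) had 3, 1 and 1 counts with DMSO and 4, 10 and 6 counts with THZ1. From these sums, 5 and 20 counts, the ratio of THZ1 to DMSO per effective library size was 6.48, with an exact binomial interval of 2.36 to 22.1 that covers counting error only. CD44 (ENSG00000026508, chromosome 11 from 35160429 to 35253949) had 3, 3 and 1 counts with DMSO and 0 in each THZ1 library. A floor of 3 counts in a library allows up to 0.253 CPM with DMSO and 0.415 CPM with THZ1, so that no fold change is given for CD44. The DMSO counts of SELPLG also lay at or under this floor, so its ratio is only a rough one. Without the filter on low counts, SELPLG was called higher (log2 fold change 2.51, adjusted p = 0.00346 by edgeR) and CD44 was not called (adjusted p = 0.0754 by edgeR). In that setting 9944 of 30884 genes were called higher and 7696 lower. An RNA on the opposite strand of SELPLG, ENSG00000257221, had 7 counts with DMSO and 27 counts with THZ1 in all, and CD44-AS1 had 2 and 0.

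The 3 integrin chains moved apart. ITGA4 (ENSG00000115232), on chromosome 2 from 182321929 to 182403667, had 95.7, 109 and 81.5 CPM with DMSO and 60.4, 80.3 and 59.1 CPM with THZ1. Although no library crossed over, the highest THZ1 library, replicate 2, lay just under the lowest DMSO library, replicate 3. ITGA4 fell by 0.52 on the log2 scale, with a 95% interval of −0.73 to −0.31 (adjusted p = 2.4e-05 by edgeR).

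ITGB1 (ENSG00000150093), the chain that ITGA4 and ITGA6 share, lies on chromosome 10 from 33176201 to 33294720. It had 80.3, 84.3 and 69.0 CPM with DMSO and 106, 111 and 115 CPM with THZ1. The log2 fold change was 0.51, with a 95% interval of 0.34 to 0.67 (adjusted p = 1.0e-06 by edgeR). Here the raw counts overlapped, with 818 to 1029 for DMSO and 801 to 861 for THZ1, so the size of the rise rests on the scaling, and with library sizes alone the log2 fold change of ITGB1 was 0.26.

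ITGA6 (ENSG00000091409), on chromosome 2 from 173292082 to 173371187, showed the largest fall among the members tested. It had 43.98, 49.8 and 42.4 CPM with DMSO and 8.81, 8.72 and 8.82 CPM with THZ1, from 67, 63 and 66 counts. These THZ1 values lay closer together than sampling of so few counts usually leaves, so their SD understates the error of the level. The mean fell from 45.4 ± 3.93 to 8.78 ± 0.0558 CPM, 5.16-fold lower, with a 95% interval of the log2 fold change of −2.62 to −2.12 (adjusted p = 9.9e-18 by edgeR). Among all genes tested, 4.07% had a lower log2 fold change than ITGA6 and 34.9% a lower one than ITGA4, whereas 82.6% were below CCR7, 71.7% below S1PR1, 67.2% below CXCR4 and 61.0% below ITGB1.

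**Figure D2:**
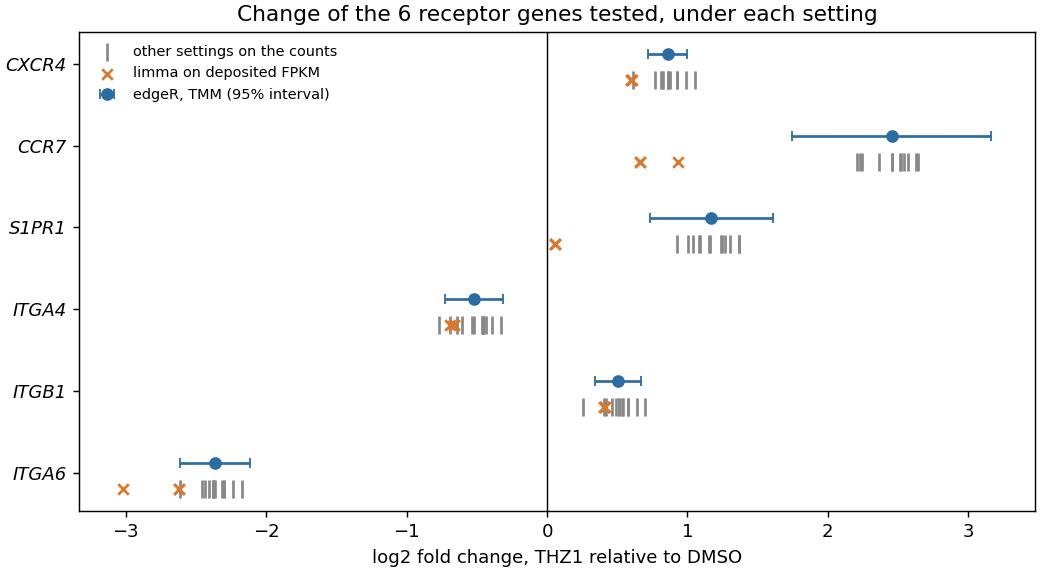
Log2 fold change of the 6 receptor genes tested, THZ1 relative to DMSO. Blue points and bars are edgeR estimates with 95% intervals, grey ticks the same gene under the other settings on the counts, and orange crosses limma on the deposited FPKM values, where S1PR1 lies near 0 (0.05) and CCR7 at 0.66 to 0.94.

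The strand setting of the counting is not given in the sources used here, so reads where genes of opposite strands overlap could have been shared or set aside. At its end ITGA4 meets CERKL, on the opposite strand, whose summed counts fell from 1515 to 87 (log2 fold change −3.42, adjusted p = 3.1e-19 by edgeR). ITGB1-DT overlaps ITGB1 on the opposite strand and had 1 count with DMSO and 42 counts with THZ1. ITGA6 is overlapped on the opposite strand by ENSG00000226963, with 30 and 73 counts, ITGA6-AS1, with 26 and 9 counts, and PDK1-AS1, with 424 and 105 counts, for DMSO and THZ1. ITGA6 itself had 1642 and 196 counts. The part of these genes in the result was not tested. No annotated gene overlaps CXCR4, CCR7 or S1PR1.

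Levels can be compared between genes only per length, for which the deposited FPKM values of the 6 members present in that table were used. With DMSO the order by mean FPKM was CXCR4 (377 ± 22.3), ITGB1 (36.1 ± 3.92), ITGA4 (25.2 ± 3.46), ITGA6 (19.2 ± 1.30), S1PR1 (3.03 ± 0.352) and CCR7 (1.45 ± 0.187), and no neighbours in this order overlapped. CXCR4 was higher than 98.6% of the 16730 genes in that table with DMSO and higher than 99.1% with THZ1, whereas CCR7 was higher than 16.8% and 23.7%. With THZ1 the mean FPKM was 571 ± 12.5 for CXCR4, 47.9 ± 1.95 for ITGB1 and 15.6 ± 2.93 for ITGA4, in the same order as before. ITGA6 dropped from the fourth place to the last, at 2.27 ± 0.0498 FPKM, and its libraries overlapped those of CCR7 (2.92 ± 0.854), which in turn overlapped S1PR1 (3.27 ± 1.06).

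A ratio of counts within a library does not depend on the scaling between libraries, and 4 such ratios were compared. The ratio of ITGA4 to ITGB1 counts was 1.19, 1.29 and 1.18 with DMSO and 0.570, 0.724 and 0.513 with THZ1, so the difference on the log2 scale was −1.03. For ITGA6 to ITGB1 it was 0.548, 0.591 and 0.614 with DMSO and 0.0832, 0.0787 and 0.0767 with THZ1, a difference of −2.88. Both α chains thus fell against their shared partner in every THZ1 library, ITGA6 by more. CXCR4 to CCR7 counts fell from 312 to 592 with DMSO to 99.2 to 155 with THZ1, a log2 difference of −1.64. For each of these 3 ratios the treatments did not overlap, and the two-sided exact permutation test gave p = 0.1, the smallest that 3 libraries against 3 allow (0.133 after Benjamini-Hochberg adjustment over the 4 ratios). CXCR4 to S1PR1 was 81.2, 60.3 and 74.0 with DMSO and 78.9, 51.0 and 48.9 with THZ1. These ranges overlapped, and the log2 difference of −0.29 was not called (p = 0.3, exact permutation test). In the deposited log2 FPKM values the difference between CXCR4 and S1PR1 was 0.55 and between CXCR4 and CCR7 −0.06, so the relation of CXCR4 to the low receptors differed between the tables.

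**Figure D3:**
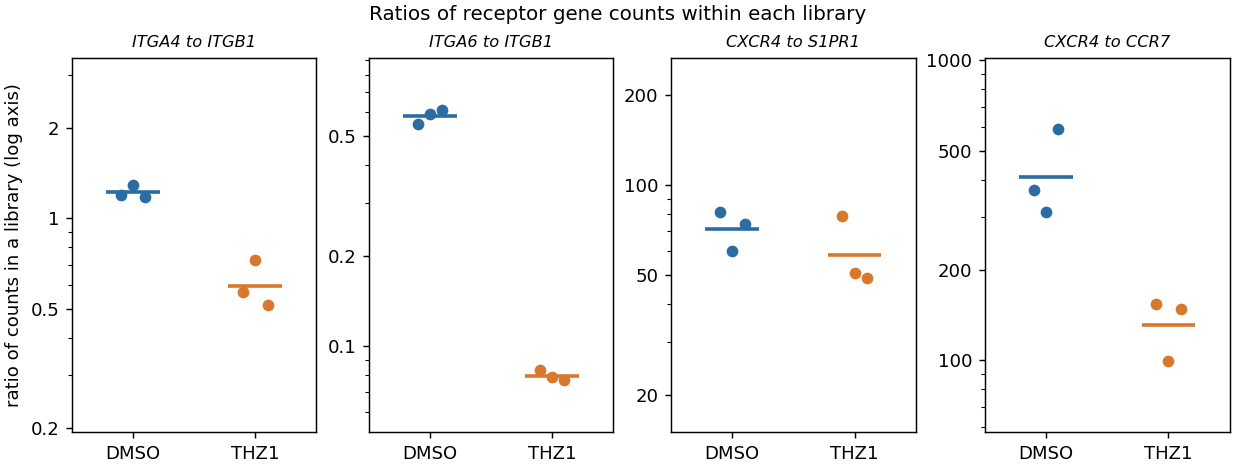
Ratio of the raw counts of 2 receptor genes within each library, on log axes that span the same number of folds in each panel. Points are libraries and bars geometric means, and the ratios of ITGA4 and ITGA6 to ITGB1 are lower in all 3 THZ1 libraries.

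The members also differ in gene size. CXCR4, S1PR1 and CCR7 span 4829, 6849 and 11704 bp with 2 or 3 exons in the main transcript, and ITGA6, ITGA4 and ITGB1 span 79106, 81739 and 118520 bp with 26, 28 and 16 exons. The 3 receptors thus belong to the shortest quartile of protein-coding genes tested (up to 12578 bp) and the 3 integrin chains to the longest (72157 bp and over). In the shortest quartile 58.5% of genes were called higher and 26.9% lower, with a median log2 fold change of 0.59, and in the longest 20.9% were called higher and 62.5% lower, with a median of −0.61. ITGB1 rose within the quartile where a fall was most frequent. These shares describe the genes around the members and were not tested.

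Patterns were compared by the root mean square difference of centred log2 CPM over the 6 libraries, as a description. HSDL2 (0.0442), the processed pseudogene ENSG00000230882 (0.0447) and NEURL1B (0.0507) were nearest to ITGA6. The long non-coding RNA gene ENSG00000262712 (0.0889), RAB41 (0.114) and another long non-coding RNA gene, ENSG00000249456 (0.117), were nearest to CCR7.

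The rest of the homing machinery was read from 8 lists, written from general knowledge with earlier results of these data known. Of their 163 genes, 161 were matched and 120 tested. Among these 120 genes 53 were called higher and 51 lower, with a median log2 fold change of 0.09. These shares are near those over all genes tested, 43.5% higher and 41.1% lower, and nothing is read from them about the machinery as a whole. The split also moved with the processing, to 39 higher and 58 lower with library sizes alone, and to 33 higher and 62 lower of 109 tested with limma on FPKM. The counts for the single lists are descriptions to be read against the same background, and no list was tested against other genes. Another gene overlaps 23 of the 29 list genes named by rule, 21 of them on the opposite strand, and the 6 without overlap are S1PR3, P2RY8, MSN, SLC35C1, RGS16 and CD38.

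Ligands for these receptors were mostly not expressed by NALM6 cells. CXCL12 had 5 counts with DMSO and 0 counts with THZ1 in all, VCAM1 had 2 and 0, and SELE and SELP had none, all 4 named after their values were seen. Of the 4 genes tested from this list of 10, 2 were higher and 2 lower, beside 43.5% and 41.1% of all genes tested. With at least 10 counts required in every library, 2 were tested, and these 2 were higher. MADCAM1, a ligand of ITGA4 paired with ITGB7, rose from 1.19 ± 0.480 to 26.5 ± 3.01 CPM. With 43 and 590 counts for DMSO and THZ1, MADCAM1 passed the main filter on low counts through the THZ1 libraries alone. MIF, a cytokine that can bind CXCR4, rose from 8.92 ± 0.712 to 15.7 ± 2.54 CPM. FN1, the fibronectin gene and also named after its values were seen, fell from 2.60 ± 0.231 to 0.889 ± 0.549 CPM. With 94 and 20 counts, FN1 passed the filter through the DMSO libraries alone.

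Among the other chemokine and lipid mediator receptors, 8 of 21 were tested, and 5 were higher and 1 lower. The shares over all genes tested were 43.5% higher and 41.1% lower. The median log2 fold change of the list was 1.13. CCR10 (16 and 136 counts with DMSO and THZ1) and CNR2 (32 and 52 counts) passed the filter through the THZ1 libraries alone. With at least 10 counts required in every library, 6 were tested, with 4 higher and 1 lower. With limma on FPKM 2 were higher and 2 lower of 7 tested. Without DMSO replicate 1 or any 1 of the THZ1 replicates the lower count was 2. LPAR6, a receptor for lysophosphatidic acid, rose from 18.2 ± 1.45 to 56.7 ± 2.003 CPM (log2 fold change 1.64). S1PR3 rose from 13.9 ± 2.74 to 25.6 ± 1.65 CPM (0.88), but in the deposited FPKM values its log2 fold change was −0.06. P2RY8, a receptor that keeps B cells in germinal centres, fell from 93.5 ± 2.90 to 12.7 ± 1.22 CPM (−2.88). For S1PR4, which was not called and was named after its values were seen, the levels were 79.3 ± 10.3 CPM (DMSO) and 89.0 ± 6.60 CPM (THZ1).

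Of 23 other integrin subunits listed, 13 were tested, and 12 of these were called higher and 1 lower, beside 43.5% and 41.1% of all genes tested. The median log2 fold change was 1.49. ITGA11 (4 and 60 counts with DMSO and THZ1), ITGB3 (1 and 40 counts) and ITGA3 (17 and 32 counts) passed the filter through the THZ1 libraries alone. Among the 10 subunits that reached 10 counts in each library, 9 were called higher and 1 lower. The count depended on the table and the scaling, since 8 were called higher with library sizes alone, and 5 higher and 4 lower of 9 tested with limma on FPKM. In the FPKM values the log2 fold changes of ITGA2B (−0.59), ITGAV (−0.58) and ITGB7 (−0.44) went the other way. Most of the 12 were scarce with DMSO. ITGA7, a laminin-binding α chain like ITGA6, rose from 2.63 ± 0.518 to 43.9 ± 1.96 CPM (4.05), and ITGAE from 38.7 ± 1.09 to 82.1 ± 2.13 CPM (1.08). ITGA5, the fibronectin-binding α chain, went from 78.9 ± 2.29 to 100.1 ± 3.64 CPM (0.34, a call lost with library sizes alone). ITGB2, the β chain of the leukocyte integrins, was the 1 subunit that fell, from 65.6 ± 3.25 to 41.9 ± 1.04 CPM (−0.65).

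For the proteins that activate integrins or tie them to the cytoskeleton, 26 of 31 genes were tested. Of these, 9 were higher and 12 lower, beside 43.5% and 41.1% of all genes tested. Those that fell included VCL, which encodes vinculin (39.4 ± 2.03 to 7.97 ± 1.35 CPM, log2 fold change −2.30), and APBB1IP, the RAP1 effector RIAM (113 ± 2.997 to 25.4 ± 1.80 CPM, −2.16). CD151, a tetraspanin partner of laminin-binding integrins, rose from 26.6 ± 3.36 to 126 ± 1.48 CPM (2.24), and MSN, the membrane linker moesin, from 380.4 ± 25.7 to 846 ± 12.6 CPM (1.15). TLN1 and FERMT3, which encode talin and the hematopoietic kindlin and bind the integrin β tail, were not called and were named after their values were seen. Levels for DMSO and THZ1 were 275 ± 20.3 and 254 ± 12.2 CPM for TLN1, and 269 ± 20.2 and 287 ± 6.75 CPM for FERMT3. The median of this list, −0.02, turned to 0.05 with RLE factors and 0.17 with upper quartile factors.

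Of the genes for the sugars and sulfates of selectin ligands, all 13 were tested, 9 fell and 3 rose, beside 41.1% and 43.5% of all genes tested, with a median log2 fold change of −1.24. CHST2, a sulfotransferase, fell from 237 ± 13.4 to 47.9 ± 4.05 CPM (−2.31), GCNT1, which builds the core 2 branch, from 41.7 ± 3.30 to 8.79 ± 1.40 CPM (−2.25), and B4GALT1, a galactosyltransferase, from 288 ± 13.2 to 212 ± 4.89 CPM (−0.44). SLC35C1, the GDP-fucose transporter, rose from 29.0 ± 0.397 to 71.2 ± 2.38 CPM (1.30). FUT4, another of the 3 that rose (0.44) and named after its values were seen, was not called with DESeq2 or library sizes alone. In the FPKM values the log2 fold change of FUT4 was −0.53. FUT7, too low for the naming rule and named after its values were seen, rose from 1.30 ± 0.416 to 11.4 ± 0.960 CPM (3.12).

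Downstream of the chemokine receptors, 29 of 32 genes were tested, with 11 higher and 14 lower, beside 43.5% and 41.1% of all genes tested. Upper quartile factors moved the median from −0.09 to 0.105. RGS16, a brake on G-protein signaling, rose from 48.1 ± 2.01 to 290.4 ± 1.61 CPM (2.59), and GNA13, the G protein that couples receptors such as P2RY8 to RHOA, from 115 ± 11.4 to 208 ± 6.11 CPM (0.85). DOCK8, a CDC42 exchange factor, fell from 31.3 ± 3.97 to 2.74 ± 0.592 CPM (−3.51), and ARRB1, which encodes a β-arrestin, from 33.5 ± 1.13 to 6.83 ± 1.19 CPM (−2.29).

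In the list of sphingosine 1-phosphate metabolism and regulators of homing receptors, 10 of 11 genes were tested. Of these, 5 were higher and 3 lower, beside 43.5% and 41.1% of all genes tested. The lower count was 1 with RLE factors, upper quartile factors, DESeq2, at least 10 counts in every library, or without THZ1 replicate 2, where the calls of ACER3 and FOXP1 were both lost. SPNS2, the transporter that exports sphingosine 1-phosphate, rose from 7.47 ± 0.668 to 49.99 ± 0.589 CPM (2.74), and FOXO1, a transcription factor of lymphocyte homing receptors, from 79.97 ± 6.97 to 161 ± 12.01 CPM (1.01). SGPL1, the lyase that degrades sphingosine 1-phosphate, fell from 41.8 ± 2.39 to 23.3 ± 2.53 CPM (−0.84). ACER3, an alkaline ceramidase, went from 20.1 ± 0.877 to 16.3 ± 0.606 CPM (−0.30), and FOXP1, a forkhead transcription factor named after its values were seen, from 45.8 ± 3.20 to 39.0 ± 2.01 CPM (−0.23). KLF2, an activator of S1PR1 named after its values were seen, rose from 1.17 ± 0.396 to 9.15 ± 0.550 CPM. With 42 and 204 counts for DMSO and THZ1, KLF2 passed the filter on low counts through the THZ1 libraries alone. CD69, also named afterwards, which holds S1PR1 inside the cell, had 3.34 ± 0.434 and 4.26 ± 0.582 CPM and was not called.

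Of the other adhesion molecules and sheddases, 17 of 22 were tested, with 6 higher and 9 lower. Over all genes tested, the shares were 43.5% higher and 41.1% lower. The median log2 fold change of the list was −0.74, against 0.03 over all genes tested. With library sizes alone, 3 were called higher and 10 lower. CD38, an ectoenzyme that also binds PECAM1, fell from 93.96 ± 5.38 to 9.25 ± 1.80 CPM (−3.34), and ICAM2 from 25.5 ± 4.70 to 5.66 ± 1.94 CPM (−2.17). The other two ICAM genes listed, ICAM1 and ICAM3, rose from 16.5 ± 2.11 to 38.5 ± 3.61 CPM (1.22) and from 8.56 ± 1.07 to 27.3 ± 1.82 CPM (1.68). All 3 encode ligands of the ITGB2 integrins. The adjusted p-values of the genes called in these lists were from edgeR's quasi-likelihood test over all genes tested.

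**Figure D4:**
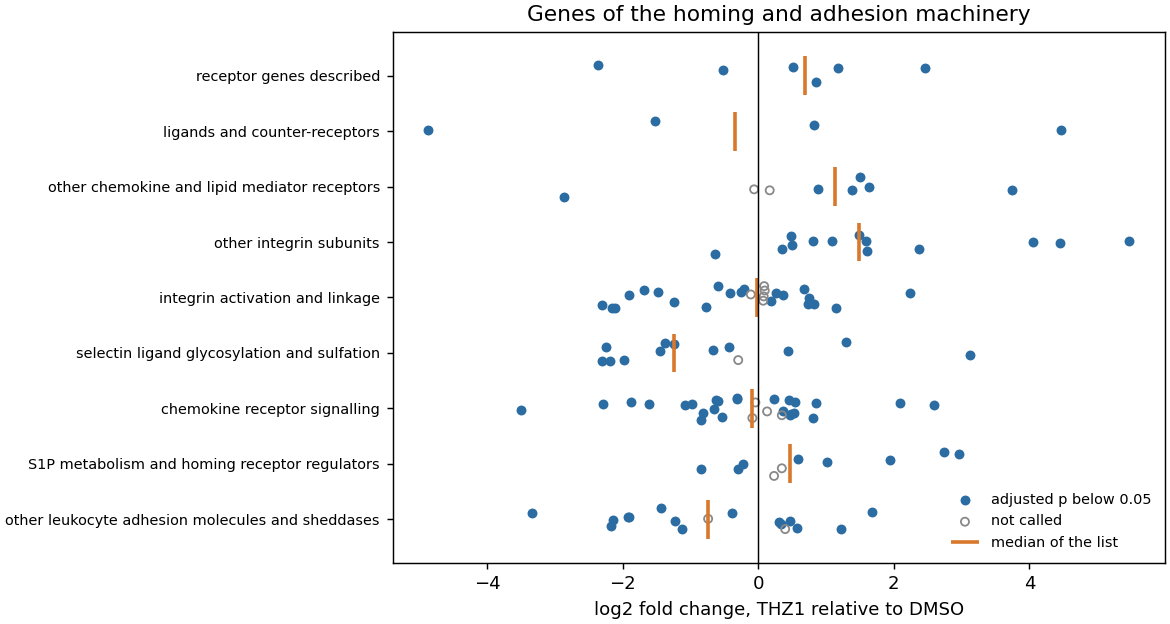
Log2 fold change, THZ1 relative to DMSO, of the 6 receptor genes tested and of each gene tested in the 8 lists of homing and adhesion machinery. Filled points are called at an adjusted p-value below 0.05, open points are not, and orange bars are medians, which run from −1.24 for selectin ligand glycosylation to 1.49 for the other integrin subunits.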

How the data were processed

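RNA-SEQ of NALM6 cells was analysed, 3 libraries per treatment. The authors filtered the reads, mapped them to GRCh37 with STAR, and deposited raw counts per gene from htseq-count, whose annotation and strand setting are not given in the sources used here. The second deposited table holds RSEM FPKM values on a log2 scale, read as log2(FPKM + 1), and the authors' own fold changes, p-values and FDR values, which were not used. The design was written for linear FPKM, and the log2 values were taken back to that scale before a pseudocount was added. Within a treatment, the sorted values of the libraries in that table are nearly the same.

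Low counts were removed with filterByExpr of edgeR, set to a minimum of 10 and a total of 15, and the quasi-likelihood test was run with TMM factors. Standard errors and intervals were derived from the F statistic of each gene. As alternatives, the scaling was changed to RLE factors, upper quartile factors or library sizes alone, DESeq2 was run, the filter was dropped or raised to 10 counts per library, replicate number was added as a block, single libraries were omitted, and limma was run on FPKM with a pseudocount of 1 or 0.1. The members and lists were chosen with earlier results of these data known. From each list, the 2 highest and 2 lowest called genes with a mean of at least 10 CPM were named, and the 3 nearest patterns for 2 members. Symbols and positions came from GENCODE 44 mapped to GRCh37. Replicate libraries differed by more than sampling noise (chi-square per gene 1.78 to 8.61). Some items are not reported here. The pipeline was tested on simulated counts. R 4.3.3, edgeR 4.0.16, limma 3.58.1, DESeq2 1.42.0, Python 3.11.15 and matplotlib 3.10.9 were used.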

Additional observations from a re-analysis of the deposited data

How the results depend on the processing

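The directions of CXCR4, CCR7, S1PR1, ITGA4, ITGB1 and ITGA6 were the same under every alternative that gave a value, and the calls at an adjusted p below 0.05 were kept except for S1PR1 in the deposited FPKM values. There the log2 fold change of S1PR1 was 0.054 with a pseudocount of 1 (adjusted p = 0.826 by limma, also for genes with a mean of at least 1 FPKM) and 0.058 with a pseudocount of 0.1 (adjusted p = 0.861), and the cause was not tested. The omission of single libraries gave 0.81 to 0.88 for CXCR4, 2.23 to 2.62 for CCR7 (0.66 to 0.94 with limma on FPKM), 1.01 to 1.37 for S1PR1, −0.69 to −0.44 for ITGA4, 0.41 to 0.54 for ITGB1 and −2.43 to −2.32 for ITGA6. The range over all alternatives was wider, 0.60 to 1.05 for CXCR4, −0.77 to −0.33 for ITGA4, 0.26 to 0.70 for ITGB1 and −3.02 to −2.17 for ITGA6. CCR7 did not reach 10 counts in every library and has no value under that filter. Against TMM, the median over all genes moved from 0.03 to 0.22 with upper quartile factors and to −0.22 with library sizes alone, and the 6 genes were called in the same direction under both. Where the change had to reach 1.5 on the log2 scale, the members called were 1 higher and 1 lower, and the list genes called were 17 higher and 21 lower. With limma on FPKM, 33 list genes of 109 tested were called higher and 62 lower, against 53 and 51 of 120 in the counts, and library sizes alone gave 39 and 58. Of 272 counts recomputed for single lists, 44 differed from the main count by more than 1.5 times. The deposited log2 FPKM values gave −3.03 for the ratio of ITGA6 to ITGB1, 0.55 for CXCR4 to S1PR1 and −0.060 for CXCR4 to CCR7, and the cause was not tested. The replicate numbers did not pair the libraries, since the deviations of equally numbered libraries correlated at −0.004 to 0.0206, and a replicate block left 4 members higher and 2 lower. With 9, 11 and 6 counts of CCR7 per DMSO library, depth limits its fold change.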
